A study of Mus musculus with 8 samples.

Results

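Cadherins are cell surface proteins whose extracellular repeats bind calcium. The members described here are the protein-coding rows of the count table whose symbols begin with Cdh and a digit, Pcdh, Celsr or Dchs, or are Fat1, Fat2, Fat3 or Fat4. There were 64 such rows among the 22691 genes of the table. They comprised 5 type I and 12 type II classical cadherins, 4 atypical cadherins, 3 delta-1 and 5 delta-2 protocadherins, 3 other protocadherins, 24 rows of the clustered protocadherins, 5 Fat and Dachsous genes and 3 Celsr genes. Of the 64, 42 passed the filter on low counts and were tested, and 22 did not.

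RNA-seq libraries came from cell lines grown from primary mouse small cell lung cancer (SCLC), a neuroendocrine tumour of the lung. All 8 libraries shared the genotype invCAG-Mycl-Luc, Rb1-/-, Trp53 -/- on an FVB/n and 129/Ola background, so that controls carried the Mycl transgene and lacked Rb1 and Trp53 too. In each of 4 pairs, 1 library came from cells with an empty vector and the other from cells overexpressing Nfib, a DNA-binding protein of the nuclear factor I group. The pairs are called cultures 1 to 4 here. Culture 1 was line Lmyc1 (labelled old), culture 2 Lmyc3 (old), culture 3 Lmyc3 (new) and culture 4 Lmyc5 (new). The labels do not explain old and new. They also do not say that an arm was grown repeatedly, and p-values reflect only how these samples spread, which may be technical. The arm was read from the source field, where the vector is named, because the titles call the Nfib arm Tumor.

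Classical cadherins join neighbouring cells by binding the same cadherin on the other cell, and their cytoplasmic tails hold catenins that link them to actin. Type I members such as Cdh1 (E-cadherin, of epithelia) and Cdh2 (N-cadherin, of neural and mesenchymal cells) differ from type II members in the binding surface of the outermost repeat. Protocadherins bind more weakly and are known above all from neurons, where the alpha, beta and gamma clusters give each cell its own combination of isoforms through choice among many promoters. Fat, Dachsous and Celsr proteins are very large cadherins that act in planar cell polarity and, for Fat and Dachsous, in growth control through the Hippo pathway.

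Counts per library summed to between 21815264 and 29934021. A count of 0 allows up to 3 counts, which corresponded to between 0.102 and 0.142 counts-per-million (CPM) and covers counting error only. Nfib itself differed as labelled in every culture. It stood at 71.97 and 1282 CPM in culture 1, 400.2 and 4682 in culture 2, 163 and 2933 in culture 3, and 487 and 3589.7 in culture 4 (empty vector first and Nfib second, as in every list of values by culture). Neuroendocrine markers summed to between 1867 and 4620 CPM in the 8 libraries. Marker sums reached at most 12.7 CPM for fibroblasts, 6.82 for endothelial cells, 2.93 for leukocytes and 4.41 for glia.

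The summed level of the 64 members lay between 1391 CPM (Nfib, culture 2) and 2800.4 CPM (empty vector, culture 3). The makeup of that sum differed between cultures. In an edgeR F test of the differences among cultures, 41 of the 42 tested members passed at an adjusted p under 0.05, against 76.7% of all 13380 genes tested. The only replicates of a culture in this test were its empty vector and Nfib libraries. Its p-values therefore set differences among cultures against the spread between the arms within cultures. Celsr1 was the exception (adjusted p = 0.0626). The highest and lowest culture means of 26 of the 42 lay more than 10-fold apart, against 13.8% of all genes, with means under the limit of 3 counts set to that limit. The median ratio of highest to lowest culture was 15.3 for the tested members and 1.92 for all genes. A gene of low level can pass the filter through the cultures where it is high, so these shares describe the genes that passed and not all 64. In bulk samples, fewer cells of a type and less RNA per cell cannot be told apart.

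Cultures 2 and 3, both named Lmyc3, differed in more members than any other combination: 28 of 42 were more than 4-fold apart in mean log2 CPM, against 14.6% of all genes. The same count was 23 for cultures 3 and 4 (12.5% of all genes), 17 for cultures 1 and 3 (7.8%), 17 for cultures 1 and 4 (11.5%), 15 for cultures 1 and 2 (12.1%) and 14 for cultures 2 and 4 (9.81%). Culture 4 held the highest mean of 25 of the 42 members (24.6% of all genes), and culture 3 the lowest mean of 23 (26.4% of all genes). The heat map of tested genes shows both patterns, and the clustered beta protocadherins, 14 of the 42, weigh heavily in them.

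**Figure D1:**
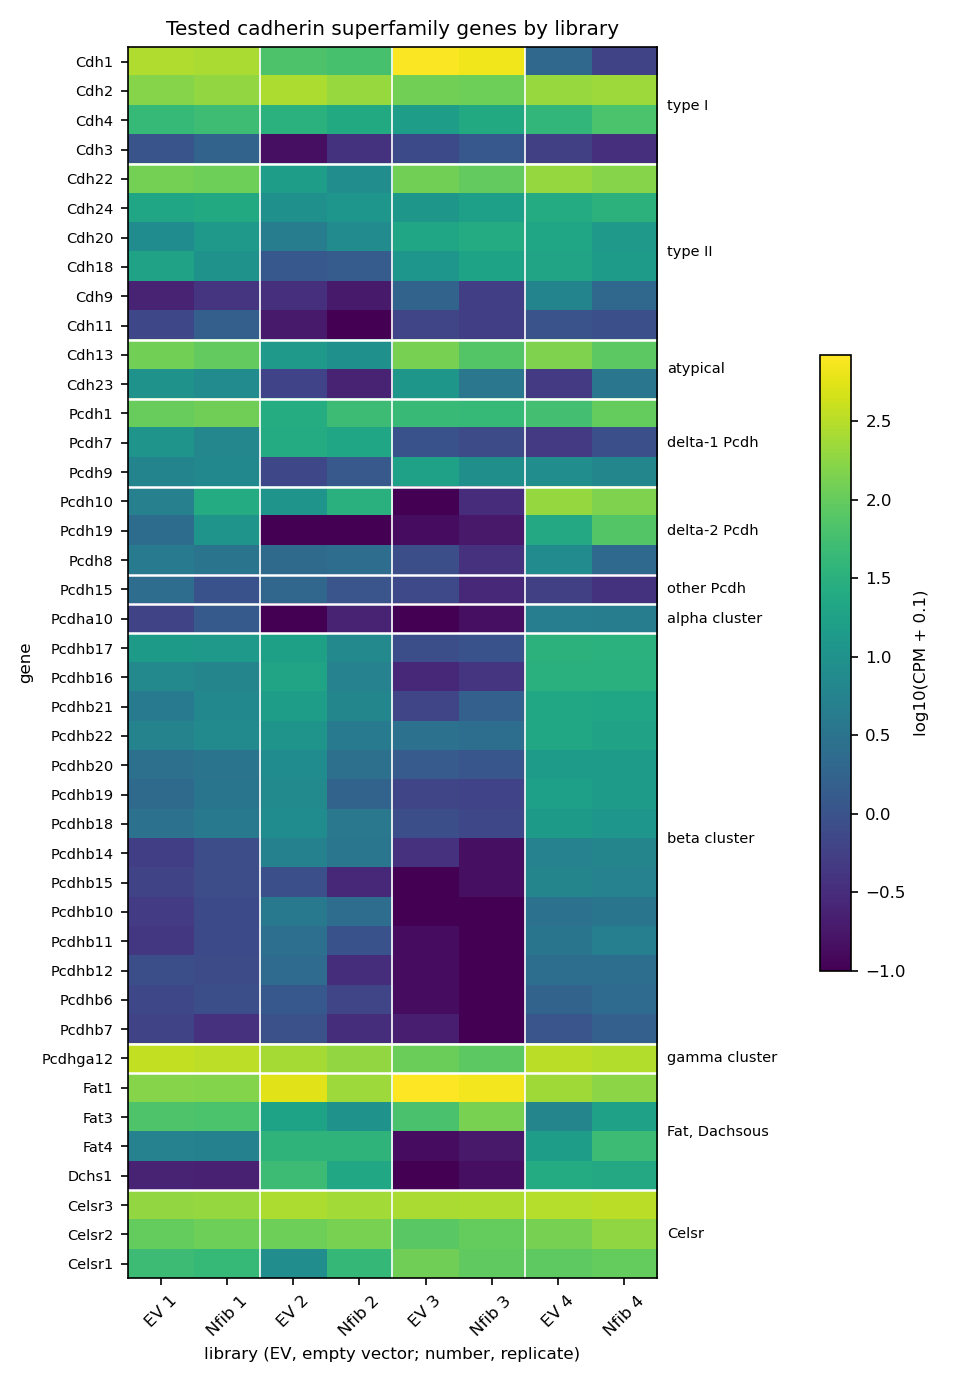
Heat map of the 42 tested cadherin superfamily genes (rows, grouped by subfamily) in the 8 libraries (columns, empty vector then Nfib for cultures 1 to 4). Colour gives log10(CPM + 0.1). Columns of the same culture resemble each other, Cdh1 is bright in culture 3 and dark in culture 4, and the beta cluster is dark in culture 3.

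Cdh1 (ENSMUSG00000000303, chromosome 8, 106603351 to 106670246, GRCm38) was the member with the highest mean level per kilobase of exon, and its level differed widely between cultures. Its level was 289.7 and 268 CPM in culture 1, 67.5 and 60.2 in culture 2, 787 and 684 in culture 3, and 1.94 and 0.546 in culture 4. Culture 3 was highest and culture 4 lowest, and in culture 4 the values rested on 43 and 14 counts. The cultures did not overlap (edgeR F test, adjusted p = 0.000102). Part of an epithelial marker list moved with it. The sum of Epcam, Krt8, Krt18, Krt5, Scgb1a1 and Sftpc was 729 and 762 CPM in culture 1, 109 and 77.2 in culture 2, 2190.0 and 2008 in culture 3, and 15.2 and 11.7 in culture 4. Of these 6, Krt8, Epcam and Krt18 had the same order of cultures as Cdh1, while Krt5 and Scgb1a1 were at or near 0 in every library. Sftpc, of alveolar type II cells, did not follow Cdh1: it was 10.4 CPM in the empty vector library of culture 2 and at most 1.25 CPM elsewhere. The part of cell composition in the Cdh1 levels was not tested.

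Zeb1, a repressor known to act on the E-cadherin promoter, had the reverse order of cultures. It measured 30.1 and 33.03 CPM in culture 1, 84.7 and 73.1 in culture 2, 0.186 and 0.130 in culture 3, and 151 and 143 in culture 4. Zeb2, a related repressor, did not follow that order, with 4.38 and 6.06 CPM in culture 1, 75.1 and 109.6 in culture 2, 36.9 and 50.04 in culture 3, and 25.95 and 20.4 in culture 4. Snai2 exceeded 1 CPM in culture 4 only (6.14 and 6.75 CPM) and Twist1 in culture 2 only (4.21 and 14.1 CPM). Of the 7 repressors of classical cadherins listed, 3 were tested (Tcf3, Zeb1 and Zeb2). None rose or fell with Nfib, against 4.06% of all genes in paired DESeq2.

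Cdh2 varied less. It was 165 and 195 CPM in culture 1, 278 and 210.1 in culture 2, 123 and 116 in culture 3, and 208 and 221 in culture 4, all within a range that Cdh1 exceeded on both sides (adjusted p = 0.00716 among cultures, edgeR F test). Per kilobase of exon, the culture means of Cdh1 were 60.96, 13.96, 161 and 0.272 CPM in cultures 1 to 4, and those of Cdh2 were 22.4, 30.2, 14.8 and 26.6 CPM. Cdh1 thus exceeded Cdh2 per length in cultures 1 and 3 and lay below it in cultures 2 and 4. Cdh4, the R-cadherin of retina and brain, ranged from 15.7 to 65.1 CPM. Cdh3, the P-cadherin of basal epithelia, stayed at or below 1.70 CPM, and Cdh15, the M-cadherin of muscle, was not tested.

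**Figure D2:**
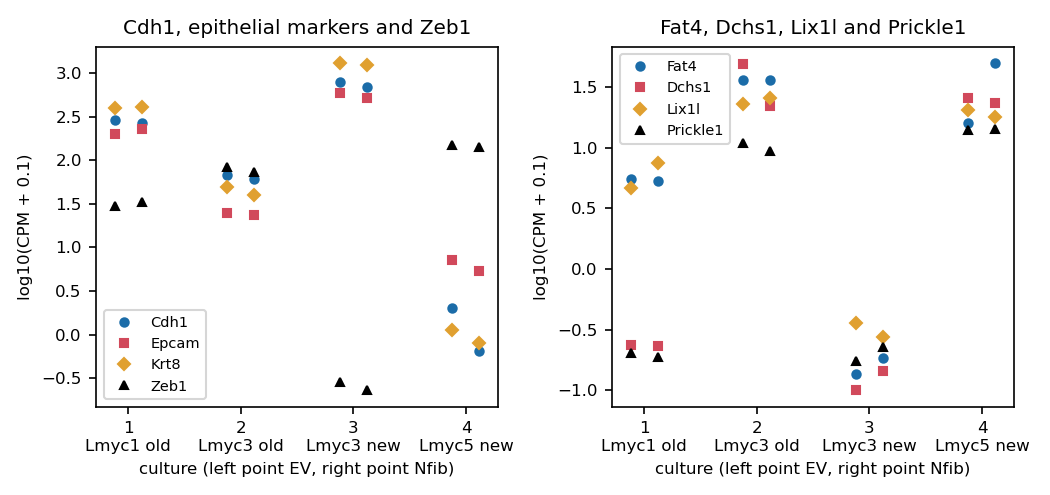
Levels by culture on the scale log10(CPM + 0.1), with the empty vector library left and the Nfib library right at each culture. On the left, Cdh1, Epcam and Krt8 are highest in culture 3 and lowest in culture 4, and Zeb1 has the reverse order; on the right, Fat4, Dchs1 and Lix1l are lowest in culture 3 and Prickle1 stands out in cultures 2 and 4. The genes plotted were chosen after their values were seen.

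Among type II cadherins, 6 of 12 were tested. Cdh22, a cadherin of brain, led them with 125 and 116 CPM in culture 1, 15.4 and 8.28 in culture 2, 124 and 96.1 in culture 3, and 203 and 165 in culture 4. Culture 2 stood far below the other cultures (adjusted p = 0.000227, edgeR F test). Cdh18, also a neural cadherin, had the same low culture, at 1.09 and 1.29 CPM there against 10.2 to 19.4 CPM elsewhere. Cdh24 ranged from 9.32 to 33.6 CPM and Cdh20 from 4.40 to 26.2 CPM, each again lowest in culture 2. Cdh9 was highest in culture 4, with 5.78 and 1.95 CPM. Cdh11, the OB-cadherin of mesenchyme, reached 1.44 CPM at most, and Cdh5, the VE-cadherin of endothelium, Cdh6, Cdh7 and Cdh10 stayed under 1 CPM in every library.

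Of the atypical cadherins, Cdh13 (T-cadherin, which is held in the membrane by a lipid anchor and has no cytoplasmic tail) shared the low level in culture 2 with Cdh22. Its values are given with its change with Nfib. Cdh23, which forms the tip links of hair cells together with Pcdh15, was 10.2 and 7.67 CPM in culture 1, 0.520 and 0.138 in culture 2, 12.1 and 3.54 in culture 3, and 0.361 and 3.32 in culture 4. Culture 2 was lowest in the mean and in the Nfib arm, and culture 4 in the empty vector arm. The arms of cultures 3 and 4 differed from each other in opposite directions. The table's Cdh23 row overlaps another protein-coding row, 4632428N05Rik (1.39 CPM on average), and reads of such overlaps cannot be assigned here. Cdh17, the liver-intestine cadherin, was seen mainly in culture 2 (1.28 and 2.02 CPM) and was not tested.

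Some members had a far higher level in a single culture than in any other. A culture mean of at least 1 CPM that was at least 5 times the next highest was found for 6 of the 64 members, against 3.41% of the genes of the table. These were Pcdh10, Pcdh19, Pcdhb15 and the alpha cluster row in culture 4, and Pcdh18 and Cdh17 in culture 2. The rule does not mean absence elsewhere, as Pcdh10 and Pcdh19 were also present in other cultures. With 10 times as the limit Pcdh18 alone was found, and with 3 times the count was 9.

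Pcdh10 (OL-protocadherin, a delta-2 protocadherin of brain; ENSMUSG00000049100, chromosome 3, 45378398 to 45434566) was 5.09 and 25.8 CPM in culture 1, 10.5 and 31.01 in culture 2, 0 and 0.216 in culture 3, and 199 and 145 in culture 4. Culture 4 was highest and culture 3 had no count in the empty vector library. Its mean in culture 4 was 8.27 times that in the next culture (edgeR F test among cultures, adjusted p = 0.00148). Pcdh8, of the same subfamily, was also highest in the empty vector library of culture 4, at 7.63 CPM, and was at or under 0.779 CPM in culture 3. Pcdh18 stayed low throughout, with 1.32 and 2.90 CPM in culture 2 and at most 0.234 CPM elsewhere.

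Delta-1 protocadherins showed other orders. Pcdh1, found in airway epithelium and endothelium, was 104 and 120.0 CPM in culture 1, 26.7 and 48.3 in culture 2, 46.2 and 42.2 in culture 3, and 57.01 and 99.4 in culture 4. Pcdh7 had its high values in cultures 1 and 2, with 10.6 and 6.54 CPM in culture 1, 25.4 and 20.5 in culture 2, 0.891 and 0.691 in culture 3, and 0.361 and 0.820 in culture 4 (adjusted p = 0.000484, edgeR F test). Pcdh9 was lowest in culture 2, at 0.615 and 1.15 CPM, and highest in the empty vector library of culture 3, at 17.5 CPM. No culture was thus highest or lowest for all 3 genes.

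The clustered protocadherins lie together on chromosome 18. The row named Pcdha10 (36930285 to 37187657) overlaps all 14 annotated protein-coding alpha genes of the GENCODE M21 annotation. The row named Pcdhga12 (37674335 to 37841873) overlaps all 21 gamma genes. The annotated gamma genes begin earlier, at 37661793, so part of that cluster lies outside its row. Values of these rows are therefore described as those of the alpha and gamma cluster rows. They cannot be given to the isoforms named. The 22 beta genes, each a single exon with its own promoter, have rows of their own. They resemble each other in sequence, and how reads shared among them were counted is not given in the sources used here.

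The gamma cluster row was the most abundant, with 363 and 341 CPM in culture 1, 252 and 197 in culture 2, 111 and 85.01 in culture 3, and 331 and 299 in culture 4. Culture 3 was lowest in both arms (adjusted p = 0.000237, edgeR F test). The alpha cluster row was near 0 outside culture 4, with 0.543 and 1.18 CPM in culture 1, 0 and 0.138 in culture 2, 0 and 0.0432 in culture 3, and 4.65 and 4.33 in culture 4. The 22 beta genes summed to 42.6 and 48.4 CPM in culture 1, 106 and 39.5 in culture 2, 7.57 and 7.60 in culture 3, and 177 and 172 in culture 4. The beta and gamma clusters were thus lowest in culture 3, and culture 4 was highest for the alpha and beta clusters. The alpha row had at most 3 counts in each library of cultures 2 and 3, which cannot be ranked.

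Of the 22 beta genes, 14 were tested. Culture 3 held the lowest mean of all 14 and culture 4 the highest of 13, the exception being Pcdhb10, where culture 2 was level with culture 4. Pcdhb17, the most abundant, was 13.7 and 13.2 CPM in culture 1, 16.8 and 6.99 in culture 2, 0.779 and 0.863 in culture 3, and 33.7 and 32.5 in culture 4. Position within the cluster went with level: the last 7 genes in genomic order, Pcdhb16 to Pcdhb22, made up between 77.3% and 97.2% of the beta sum in each library. Pcdhb1, Pcdhb2, Pcdhb3, Pcdhb4 and Pcdhb5, at the other end, were not tested. The plot of the cluster in genomic order shows the higher levels at the Pcdhb22 end in all 4 cultures.

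**Figure D3:**
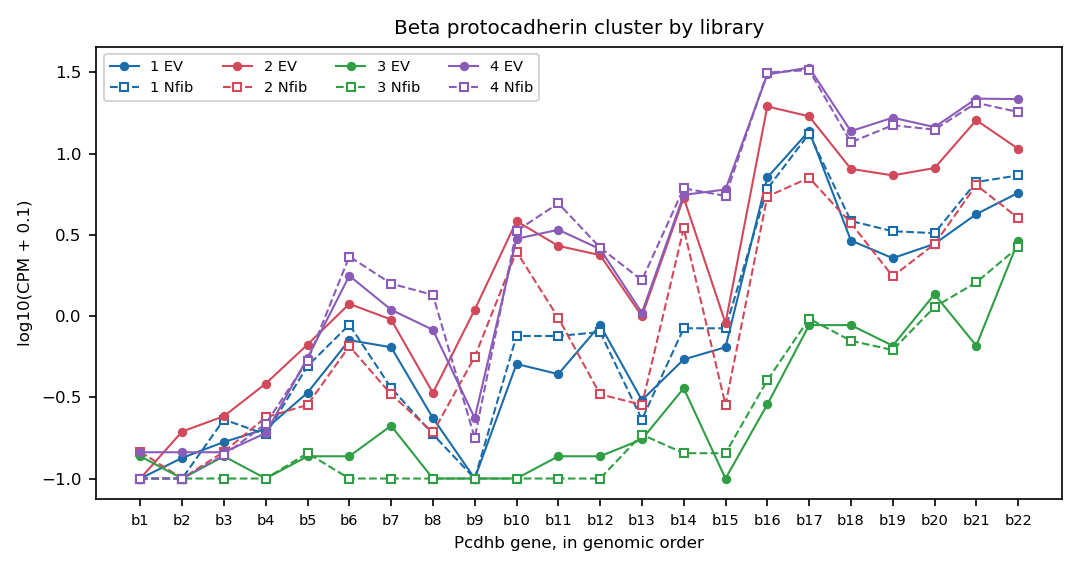
The 22 beta protocadherin genes in genomic order (horizontal axis) with their level in each library as log10(CPM + 0.1) (vertical axis). Colours mark cultures, filled circles the empty vector and open squares the Nfib library. Most of the summed level lies from b16 to b22, culture 3 is lowest over the 14 tested genes, and the Nfib library of culture 2 lies below its empty vector library for these 14.

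Fat1 (ENSMUSG00000070047, chromosome 8, 44935447 to 45052257) was the most abundant of the giant cadherins. It measured 163 and 158 CPM in culture 1, 553 and 225 in culture 2, 841 and 710.3 in culture 3, and 235 and 174 in culture 4. Culture 3 was highest in both arms, as for Cdh1 (adjusted p = 0.00301, edgeR F test). Fat3, known from neurons of the retina, was 68.7 and 64.6 CPM in culture 1, 18.97 and 10.4 in culture 2, 62.7 and 134 in culture 3, and 5.91 and 17.5 in culture 4, lowest in culture 4 in the empty vector arm.

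Fat4 and Dchs1, which bind each other across cells as receptor and ligand, were both present in cultures 2 and 4. Fat4 was 5.46 and 5.19 CPM in culture 1, 36.2 and 35.9 in culture 2, 0.0371 and 0.0863 in culture 3, and 15.9 and 49.6 in culture 4. Dchs1 was 0.136 and 0.131 CPM in culture 1, 48.8 and 21.9 in culture 2, 0 and 0.0432 in culture 3, and 25.5 and 23.1 in culture 4. They parted in culture 1, where Fat4 was above 5 CPM while Dchs1 rested on 4 and 3 counts (edgeR F test among cultures, adjusted p = 0.000767 for Fat4 and 0.000164 for Dchs1). The Dchs1 row overlaps a pseudogene row with a mean of 0.236 CPM.

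Among 13 other planar polarity and Fat partner genes, some shared those cultures. Lix1l, a relative of the fly protein Lowfat that binds Fat and Dachsous, was 4.58 and 7.32 CPM in culture 1, 22.9 and 25.8 in culture 2, 0.260 and 0.173 in culture 3, and 20.4 and 17.8 in culture 4. Prickle1, a core polarity protein, was 0.102 and 0.0872 CPM in culture 1, 10.8 and 9.34 in culture 2, 0.0742 and 0.130 in culture 3, and 13.9 and 14.2 in culture 4. The genes named here were chosen after their values were seen. All 13 were tested and none rose or fell with Nfib, against 4.06% of all genes in paired DESeq2. The most abundant was Scrib.

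Celsr genes, the vertebrate counterparts of the fly polarity gene flamingo, act in the orientation of cells and axons. Celsr3 and Celsr2 had the smallest ratios between cultures among the tested members. Celsr3 was 194 and 201 CPM in culture 1, 279.7 and 239 in culture 2, 270.3 and 278 in culture 3, and 303 and 330.4 in culture 4 (adjusted p = 0.00705 among cultures, edgeR F test). Its highest and lowest culture means were 1.60-fold apart. Those of Celsr2 were 1.73-fold apart. Celsr1 was 48.9 and 43.1 CPM in culture 1, 8.28 and 41.5 in culture 2, 119 and 91.6 in culture 3, and 90.5 and 100.3 in culture 4, and the arms of culture 2 differed by more than those of any other culture. Per kilobase of exon, averaged over the 8 libraries, Cdh1 (59.02 CPM) was followed by Cdh22 (28.8), Fat1 (24.4), Cdh2 (23.5), Celsr3 (21.7) and Celsr2 (10.5).

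The comparison of Nfib with empty vector asked which members change when Nfib is forced up. How many passed depended on the test, and with 4 pairs a member that did not pass may still have changed. Within cultures, the delta-2 protocadherin Pcdh19 rose, with nearly all of its counts in cultures 1 and 4, the polarity cadherin Celsr2 rose slightly, and the lipid-anchored Cdh13 fell. Classical cadherins, among them Cdh1 and Cdh2, did not pass. By the primary test, edgeR without a term for the culture, no member passed, as no gene did (0% of 13380). At an unadjusted p under 0.05 this test found 83 genes, none of them a member. For 0 of the 42 members did all Nfib libraries lie above or below all empty vector libraries, against 0.516% of all genes. Libraries of a culture deviated together from their group means, so changes were read within cultures by DESeq2 with the replicate number as a block. In what follows, rose and fell mean an adjusted p under 0.05 in that paired test. It called 3 of the 42 members, against 4.06% of all genes: Pcdh19 and Celsr2 rose and Cdh13 fell. EdgeR with the same block called no gene, and its smallest adjusted p was 0.0657.

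Cdh13 (ENSMUSG00000031841, chromosome 8, 118283733 to 119324921) fell in the paired test. Its level was 121 and 96.7 CPM in culture 1, 13.4 and 9.29 in culture 2, 129.6 and 73.6 in culture 3, and 147 and 86.8 in culture 4. The Nfib library was lower in every culture, and the arms overlapped, with culture 2 far below the rest in both. Group means were 103 ± 60.6 CPM with empty vector and 66.6 ± 39.3 with Nfib (SD, n = 4). The within-pair log2 ratios were -0.32, -0.52, -0.82 and -0.76 for cultures 1 to 4. The paired DESeq2 log2 fold change was -0.62 ± 0.12 (SE), with an adjusted p of 6.92e-05. Leaving out any culture kept the call, with adjusted p between 1.03e-05 and 0.0261. With the block, edgeR gave an adjusted p of 0.156 and limma voom 0.0935.

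Pcdh19 (ENSMUSG00000051323, chromosome X, 133582863 to 133688993), a delta-2 protocadherin known to act with N-cadherin and for its link to an epilepsy of girls, rose. Its level was 2.34 and 10.6 CPM in culture 1, 0 and 0 in culture 2, 0.0371 and 0.0863 in culture 3, and 23.4 and 74.6 in culture 4. Both expressing cultures, 1 and 4, were higher with Nfib, while culture 2 had no count and culture 3 had 1 and 2 counts. Group means were 6.45 ± 11.4 CPM with empty vector and 21.3 ± 35.9 with Nfib (SD, n = 4). The paired DESeq2 log2 fold change was 1.84 ± 0.40 (SE), adjusted p = 0.000488, and the within-pair log2 ratios were 2.14, 0.00, 0.50 and 1.67. The rise therefore rests on cultures 1 and 4. Without either of them the gene no longer passed the filter on low counts and was not tested, and with the block edgeR gave an adjusted p of 0.117.

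Celsr2 (ENSMUSG00000068740, chromosome 3, 108390851 to 108415552) rose by a small amount. It was 99.8 and 114 CPM in culture 1, 115 and 137 in culture 2, 83.7 and 101 in culture 3, and 130.1 and 188 in culture 4. Each Nfib library was above its partner, with within-pair log2 ratios of 0.19, 0.25, 0.27 and 0.53. Group means were 107 ± 19.96 CPM with empty vector and 135 ± 38.6 with Nfib (SD, n = 4). The paired DESeq2 log2 fold change was 0.30 ± 0.09 (SE), adjusted p = 0.0322. Leaving out any culture ended the call, with adjusted p between 0.102 and 0.384 for 3 against 3 libraries. Celsr3 gave -0.01 ± 0.09 and Celsr1 0.42 ± 0.54 (SE), neither passing, and the Celsr1 value turned to -0.14 without culture 2.

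**Figure D4:**
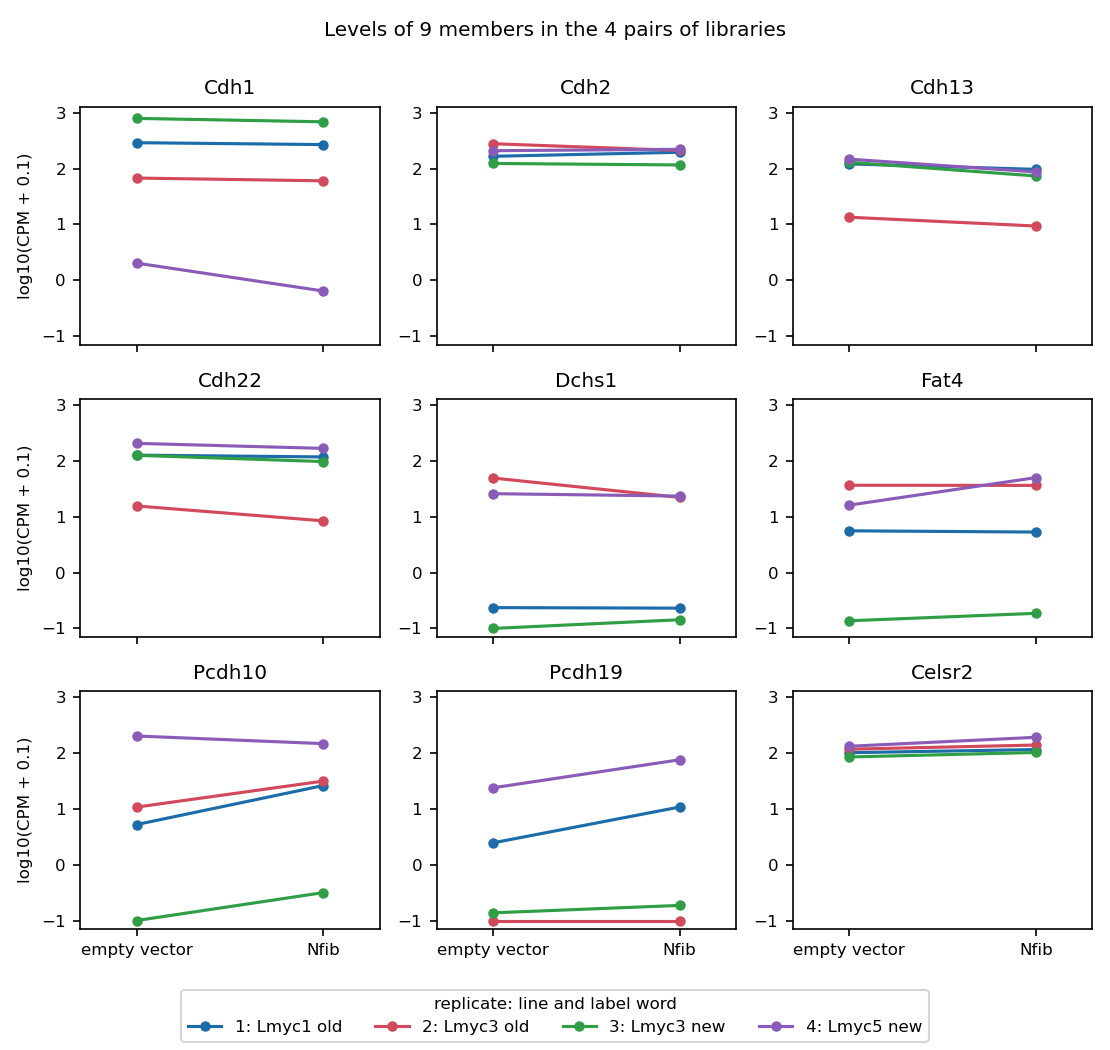
Levels of 9 members with empty vector and with Nfib, on the scale log10(CPM + 0.1), with a line joining the libraries of each culture. Cdh13 and Cdh22 slope down in all 4 cultures and Celsr2 slopes up in all 4; the distance between cultures exceeds the slopes in Cdh1, Dchs1, Fat4, Pcdh10 and Pcdh19.

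Promoter windows are shown for the members that rose, and for Pcdh10, a delta-2 member whose within-pair ratio was positive in 3 cultures. Pcdh10 did not pass (paired DESeq2 adjusted p = 0.346) and was lower with Nfib in culture 4. They run from 250 bases before to 50 after the start of a RefSeq transcript (GRCm38.p6), written 5′ to 3′ on the strand of the gene. Nuclear factor I proteins bind TTGGC, usually as a palindrome with GCCAA after a spacer of 5 bases. Capitals mark TTGGC on either strand. Windows were at chrX:133688944-133689243 on the minus strand for Pcdh19, chr3:45378148-45378447 on the plus strand for Pcdh10, and chr3:108415530-108415829 on the minus strand for Celsr2.
Pcdh19: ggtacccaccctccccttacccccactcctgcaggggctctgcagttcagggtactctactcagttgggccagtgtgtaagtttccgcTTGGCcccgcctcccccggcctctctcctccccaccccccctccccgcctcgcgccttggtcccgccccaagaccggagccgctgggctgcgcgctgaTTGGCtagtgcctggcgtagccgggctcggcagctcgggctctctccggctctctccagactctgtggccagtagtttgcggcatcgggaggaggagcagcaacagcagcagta
Pcdh10: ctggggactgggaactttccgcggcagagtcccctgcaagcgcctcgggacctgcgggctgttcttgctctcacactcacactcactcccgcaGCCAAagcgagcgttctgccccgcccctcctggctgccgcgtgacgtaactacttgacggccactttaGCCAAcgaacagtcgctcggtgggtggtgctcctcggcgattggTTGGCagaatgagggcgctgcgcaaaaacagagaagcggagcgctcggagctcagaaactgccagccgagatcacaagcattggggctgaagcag
Celsr2: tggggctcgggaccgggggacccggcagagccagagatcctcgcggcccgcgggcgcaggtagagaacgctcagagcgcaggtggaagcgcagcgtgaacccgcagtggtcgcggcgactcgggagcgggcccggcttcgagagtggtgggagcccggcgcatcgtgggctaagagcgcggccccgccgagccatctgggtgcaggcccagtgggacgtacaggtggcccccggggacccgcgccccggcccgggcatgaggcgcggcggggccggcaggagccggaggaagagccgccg

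The Pcdh19 window held 2 TTGGC elements, 1 of them within a CCAAT box read on the other strand (ATTGG), which is the site of another factor. The Pcdh10 window held 3, the most of any member window, and the Celsr2 window 0. Cdh24, higher with Nfib in every culture without passing, had 0. Cdh20 and Celsr3, higher in 3 cultures without passing, had 2 and 0. The windows shown thus do not represent the members higher with Nfib. The palindrome was in none of the 31 windows of the 28 members matched by symbol outside chromosome 18. It was in 0.037% of all 32851 windows of the table. Members on chromosome 18, Cdh2 and the clustered protocadherins among them, were left out, and Cdh1 and Cdh13 had no window. The TTGGC element alone, on either strand, was in 19 of the 31 member windows, against 46.7% of all windows. In the windows of Cdh9, Cdh18, Pcdh9, Pcdh17 and Pcdh18 the only such element lay within a CCAAT box. Windows of the same members overlap or repeat in places, a match is only a match of letters, and no binding was measured. The windows held 18, 24 and 40 CpG dinucleotides for Pcdh19, Pcdh10 and Celsr2, against a median of 14 in member windows and 7 in all windows.

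Several members had the same sign in all cultures without passing. With Cdh13 and Celsr2 counted, 8 of 42 members kept a sign (2 higher and 6 lower), against 25.6% of all genes. That share is not above the background. The gamma cluster row was lower with Nfib in each culture (paired DESeq2 log2 fold change -0.25 ± 0.08 SE, adjusted p = 0.0632). So was Cdh22 (-0.40 ± 0.14, adjusted p = 0.0781), whose log2 ratios of -0.11, -0.89, -0.37 and -0.30 were all negative, as were those of Cdh13. Without culture 2 the Cdh22 value was -0.26.

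Fat1 was lower in each culture too, with log2 ratios of -0.04, -1.30, -0.24 and -0.44. The largest was that of culture 2, where Fat1 went from 553 to 225 CPM, and the paired DESeq2 log2 fold change was -0.51 ± 0.20 (SE, adjusted p = 0.141, and 0.0465 without culture 1). Without culture 2 the value was -0.25 (adjusted p = 0.235). Cdh1 (-0.40 ± 0.21, adjusted p = 0.398) and Pcdh15 (-1.26 ± 0.54, adjusted p = 0.217, at 0.173 to 2.44 CPM) completed the lower 6. The Cdh1 value depended on culture 4, where its counts were few: it was -0.16 without that culture, and with the block edgeR gave -0.27 and limma voom -0.18. Cdh24 was higher in each culture (0.32 ± 0.13, adjusted p = 0.172). None of these 6 members passed with all 4 cultures.

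Pcdh10 differed in direction between cultures. Its log2 ratios were 2.32, 1.55, 1.85 and -0.45, higher with Nfib in cultures 1, 2 and 3 and lower in culture 4, where it was most abundant. In culture 3 the ratio rested on 0 and 5 counts. Over all cultures DESeq2 gave 1.61 ± 0.81 (SE, adjusted p = 0.346), and without culture 4 it gave 2.07 with an adjusted p of 0.000232. Pcdh1 passed only without culture 3 (0.61, adjusted p = 0.0424, against 0.42 ± 0.19 and 0.264 with all 4), and Cdh4 only without culture 2.

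**Figure D5:**
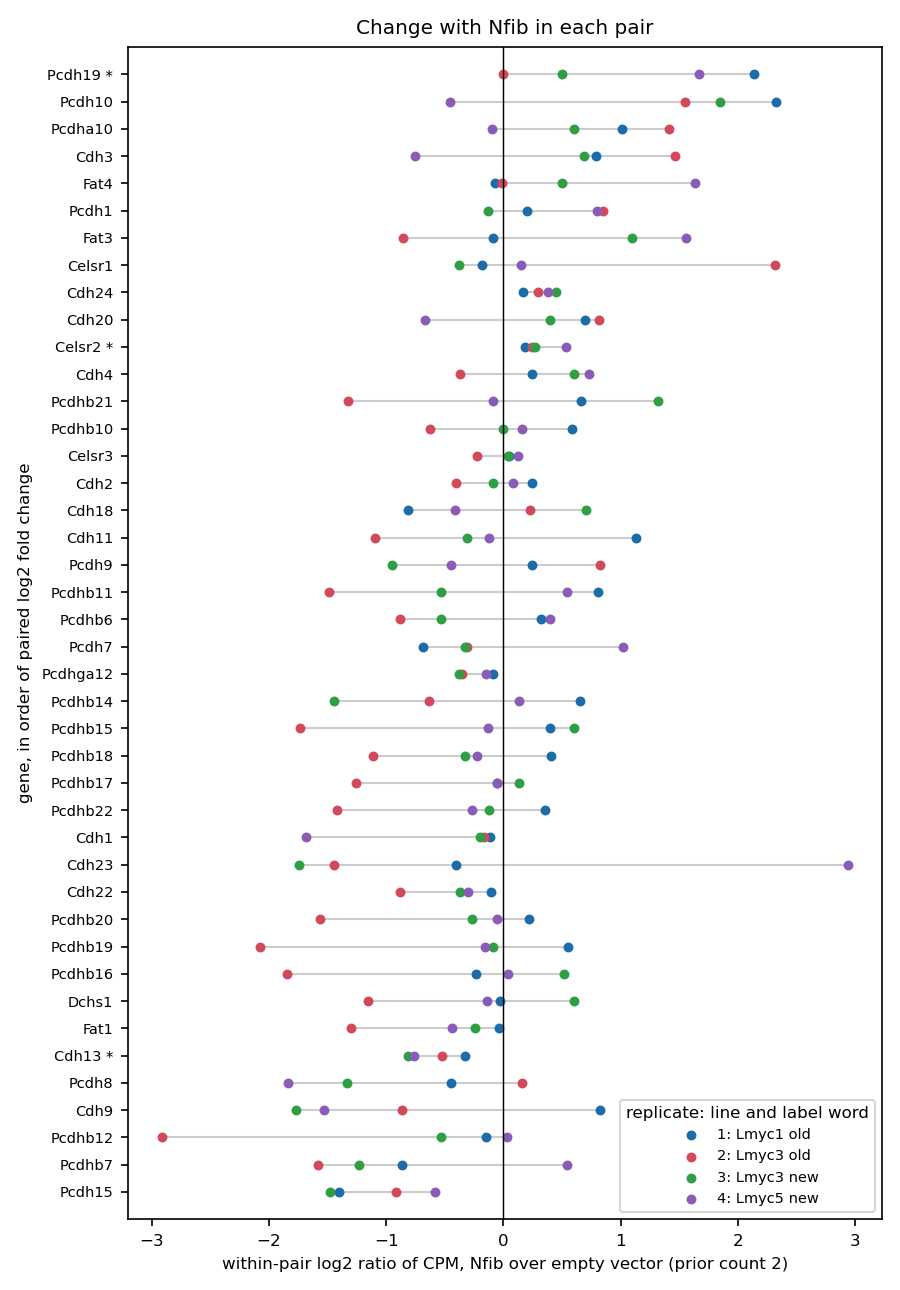
Within-pair log2 ratios of CPM, Nfib over empty vector, for the 42 tested members (rows, in order of the paired log2 fold change), with a point for each culture. Asterisks mark Cdh13, Celsr2 and Pcdh19, which passed the paired DESeq2 test. The points of culture 2 lie left of 0 for most members, with all 14 beta genes among them.

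Culture 2 had the lowest median change. The 42 members had a median within-pair log2 ratio of 0.20 in culture 1, -0.63 in culture 2, -0.13 in culture 3 and -0.07 in culture 4, while that of all genes was within 0.01 of 0 in each. Lower with Nfib were 18 of 42 members in culture 1, 30 in culture 2, 24 in culture 3 and 23 in culture 4. Of all 13380 genes tested, 6686, 6733, 6631 and 6784 were lower in cultures 1 to 4. In culture 2 all 14 tested beta genes were lower, with a median of -1.45, and the sum of the 22 beta genes went from 106 to 39.5 CPM. In culture 1, 4 of the 14 beta genes were lower, in culture 3, 9, and in culture 4, 7. The beta sum changed by 0.19, -1.42, 0.01 and -0.04 on the log2 scale in cultures 1 to 4. The beta genes share a locus and reads of similar sequence, so they do not count as 14 separate observations. None of them passed the paired test, in which Pcdhb7 had no adjusted p (unadjusted p = 0.221, DESeq2). Of the fibroblast markers, Pdgfra alone also differed clearly between the arms of culture 2 (10.4 and 2.58 CPM). The other fibroblast markers listed were at or under 0.184 CPM there. The neuroendocrine sum was 3297 and 1867 CPM in that culture. Kdr, of the endothelial list, was higher with Nfib in cultures 2 (0.0946 and 5.75 CPM) and 3 (0.0371 and 6.48 CPM). The rest of that list did not follow Kdr. Tek (1.37 and 0.230 CPM) and Pecam1 (0.426 and 0.184 CPM) were lower with Nfib in culture 2. In culture 3 the other endothelial markers were at or under 0.259 CPM. Their part in the result was not tested.

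Over all genes the median paired log2 fold change was -0.01, with 6481 positive and 6893 negative. Over the 42 tested members it was -0.19, with 14 positive and 28 negative. Of these 28, 12 were beta genes. Known partners of cadherins were listed too. None of 10 tested catenins and associated proteins rose or fell, against 4.06% of all genes. Ctnnb1 (beta-catenin) was the most abundant of them at 647 to 1214 CPM. None of 11 regulators of the clustered genes, CTCF and cohesin subunits among them, passed, against 4.06% of all genes. Of these 11, 5 had a positive and 6 a negative value. The cohesin subunit Stag1 was higher in every culture (log2 fold change 0.20, DESeq2 adjusted p = 0.0520). Nor did any of 7 enzymes that cut cadherins pass (furin, Adam10 and the gamma-secretase subunits), against the same 4.06%. Among 13 related genes with cadherin repeats, 7 were tested and Cdhr1, a cadherin of photoreceptors, fell (log2 fold change -0.72 ± 0.23, SE, DESeq2 adjusted p = 0.0387). Cdhr1 was 24.8 and 21.9 CPM in culture 1, 73.9 and 29.03 in culture 2, 12.8 and 10.6 in culture 3, and 159.8 and 78.8 in culture 4, lower with Nfib in every culture.

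The 22 members that were not tested had few counts. In 16 of them every library was under 1 CPM, and 9 never exceeded 3 counts in a library, among them Cdh5, Cdh6, Cdh7 and Pcdh12. The highest value among the 22 was 3.57 CPM, that of the neural type II cadherin Cdh8 in the Nfib library of culture 1, where its empty vector library had 2.92 CPM. In cultures 2, 3 and 4 Cdh8 lay between 0 and 1.17 CPM. For the 9 with at most 3 counts, a change was not detectable at this depth.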

How the data were processed

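RNA from 8 libraries, 4 with empty vector and 4 with Nfib, was sequenced from TruSeq RNA libraries, per the labels' protocols. The authors deposited raw read counts per Ensembl gene, with symbols, biotypes and GRCm38 coordinates. Per the submitters' processing notes, the build was GRCm38 (mm10) and the tools were TopHat2 2.1, DESeq2, SAMtools 0.1.19 and Bowtie 1.0.0. What counted the reads, whether by strand, and from which annotation release is not given in the sources used here. Reads of overlapping or antisense genes therefore cannot be told apart.

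From the counts, CPM was computed on TMM-scaled library sizes. The filter was edgeR's filterByExpr by group, which kept 13380 genes. Nfib was compared with empty vector by the quasi-likelihood test of edgeR 4.0.16 (R 4.3.3, legacy form), the primary test, and cultures by its F test of the culture terms in a model with arm and culture. The limma version was 3.58.1. Rises and falls come from DESeq2 1.42.0 with the replicate number as a block, an alternative. P-values were Benjamini-Hochberg adjusted, at 0.05, over all genes tested in edgeR and limma. DESeq2 first set aside genes of low mean count by its default filter, so its adjustment covered fewer genes. Genes set aside count as not called. Within-pair log2 ratios used a prior count of 2. Exon lengths came from GENCODE M21, where all 64 members were found, 62 of them within 100 kb. Promoter windows came from RefSeq. The edgeR and DESeq2 fits were also run on counts simulated from a model that edgeR fitted to these data. Such counts follow that model by construction, so they cannot decide between fits that differed on the real counts.

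Libraries of the same replicate number carry the same line name in the labels, and this is the pairing used. Across genes, deviations from the group means correlated at 0.908, 0.884, 0.935 and 0.929 within pairs and at most at 0.0647 otherwise.

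Named members were those that passed the paired test, the 10 of highest mean CPM, the top of each subgroup, members at least 5 times higher in a culture than in the next, and members of 1 sign in all pairs with an unadjusted paired edgeR p under 0.05. Others were named to describe their subgroup. The members, lists and tests were chosen with earlier results of these data known. Alternatives were other scalings, filters, tools and blocks, and each replicate left out.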

Additional observations from a re-analysis of the deposited data

Results flagged for a closer look

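In groups of 4 libraries, the highest or lowest was compared with the others by Dixon's ratio, which marks about 1 in 20 groups by chance. It marked 10 values of the named members, all of them the highest of their group. In culture 4 these were Pcdh10 with empty vector (198.7 CPM), Pcdh19 with empty vector (23.4 CPM) and with Nfib (74.6 CPM), Pcdhb15 with empty vector (5.91 CPM) and with Nfib (5.39 CPM), and the alpha cluster row with empty vector (4.65 CPM). In culture 2 they were Pcdh18 with empty vector (1.32 CPM) and with Nfib (2.90 CPM), and Cdh17 with Nfib (2.02 CPM). In culture 3 it was Fat1 with Nfib (710.3 CPM). All but Fat1 belong to the members named for a high level in a single culture, so the marks repeat that choice.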

How the results depend on the processing

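The primary test called 0 members with Nfib. It also called 0 with the replicate block, with other scalings, without the low-count filter, with limma voom and the block, and by DESeq2 without the block. DESeq2 with the replicate block called 3 (Cdh13, Celsr2 and Pcdh19), and the same 3 with total-count scaling. With the line as a block and the Lmyc3 pairs summed it called 2 (Cdh13 and Pcdh19). A bias-adjusted edgeR fit with the block, added after the data were seen, called 1 (Pcdh19). Leaving out a replicate gave 0 to 3 members. EdgeR gave 0 each time, while DESeq2 with the block called Cdh13 and Fat1 without replicate 1, Cdh13, Cdh4 and Pcdh19 without replicate 2, Cdh13, Pcdh1 and Pcdh19 without replicate 3, and Cdh13 and Pcdh10 without replicate 4. Over all genes, DESeq2 with the block called 351, 382, 234 and 251 without replicates 1, 2, 3 and 4. The cause of the differences between fits was not tested. Small log2 fold changes turned sign. Celsr3 was 0.0235 with total-count scaling and 0.0242 with the line as a block, and -0.0513 to 0.0668 without a replicate. Celsr1 was -0.0359 with the line as a block and -0.142 to 0.72 without a replicate. Cdh2 was 0.0197 with the line as a block and -0.145 to 0.0741 without a replicate, and Pcdhb15 was -0.623 to 0.272. The count of members that differed among cultures was 41, and between 31 and 49 under its alternatives. The 49 came without the low-count filter, where more members were tested. Depth limits the members under the level of 3 counts.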
